A study of Mus musculus with 4 samples.

Results

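The cytosolic ribosomal protein genes were taken from the gene list of the 4 libraries as the symbols that start with Rpl or Rps and a digit, with Rplp0, Rplp1, Rplp2 and Rpsa, and without symbols holding "-ps". This gave 96 of 32285 symbols. Of these, 85 encode ribosomal proteins or their paralogs, 52 of the large and 33 of the small subunit. The other 11 match the pattern but encode S6 kinases and their relatives (Rps6ka1 to Rps6ka6, Rps6kb1, Rps6kb2, Rps6kc1, Rps6kl1) or Rps19bp1, a regulator of another kind, and were kept out of all sums. The 85 genes lie on 19 chromosomes, 4 of them on X (Rpl10, Rpl36a, Rpl39 and Rps4x), and have a median coding length of 453 bases, from 75 bases in Rpl41 to 1257 in Rpl4 among the genes that are not paralogs.

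Each library came from 300 islets pooled from 2 to 3 female mice on a C57b6/J background, processed on the 10x Chromium platform. The groups were CCR2-DTR+/- mice and WT littermates, each taken at the age of 1 month and of 6 months, with 1 library for each group. Where 4 values follow each other, the younger pair comes first, and within each pair WT precedes CCR2-DTR. Every group, WT included, received diphtheria toxin 4 times, 48 hours apart, from postnatal day 2, and was weaned at 21 days to regular chow. CCR2-DTR makes cells that express the chemokine receptor CCR2, chiefly monocytes, sensitive to the toxin; WT mice lack the transgene. With 1 library per group no test between groups was possible, and every interval below covers counting error only.

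The libraries listed 5089 to 12444 barcodes, and 3633 to 8736 cells per library were kept, at a median of 8859 to 14703.5 unique molecular identifiers (UMIs, 1 per captured RNA molecule). Barcodes past 15% mitochondrial UMIs made up 18.4% and 23.9% of the CCR2-DTR libraries at 1 and 6 months, against 9.37% and 12.2% in WT. Pairs of libraries shared 6 to 34 barcodes. Clusters were named from marker genes, with ribosomal protein genes kept out of the genes used for clustering, so the classes were not defined by them. The 7 classes compared were 3 endocrine ones (beta-like, alpha-like and delta-like cells), a further cluster led by Ppy, the pancreatic polypeptide gene, which did not meet the naming rule, and macrophage-like, endothelial-like and mesenchymal-like cells. The Ppy-led cluster is counted among the endocrine classes. Summed RNA of 12 acinar genes was higher in both CCR2-DTR libraries in every class, for example 98.8 and 134 CPM (the share of all counts, scaled to a common total) in beta-like cells against 5.68 and 18.03 in WT; its part in the results below was not tested.

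The ribosome is built from a large subunit, which joins amino acids, and a small subunit, which reads the mRNA. Each subunit holds 1 copy of most of its proteins, and the genes are among the most abundantly transcribed in any cell. Many of their mRNAs start with a C followed by an unbroken run of pyrimidines, the 5′ terminal oligopyrimidine (TOP) motif, through which growth signals acting by way of mTOR set their translation. In beta cells, demand for insulin makes protein synthesis a major load.

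The start regions of some members are shown because that motif lies at the start of an mRNA. The windows are 30 bases from RefSeq (GRCm38.p6), read 5′ to 3′ on the gene's strand, with 12 bases before the annotated start. Capitals mark a run of at least 7 bases that are each C or T and that lies within 5 bases of the start. A first C was not required, so a marked run is not by itself the TOP motif. Rps2, Rplp0 and Rpl36a held no such run. Rpl35, Rps27 and Rpl22l1 were among the genes that differed most between libraries or classes, Rpl7a, Rps6, Rps2 and Rplp0 were among those with the highest differences at 1 month, and Rpl36a is the parent of a paralog described below.
Rpl35, chr2:39005114-39005143, minus strand: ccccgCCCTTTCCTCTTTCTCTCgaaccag
Rps27, chr3:90213631-90213660, minus strand: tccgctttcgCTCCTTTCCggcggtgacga
Rpl22l1, chr3:28805496-28805525, plus strand: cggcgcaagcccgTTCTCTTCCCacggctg
Rpl7a, chr2:26910795-26910824, plus strand: CCCTCTTCTTTCTTTCTCCagcagccgagc
Rps6, chr4:86857350-86857379, minus strand: cggaagtcgggCCTCTTTTTCgtgacgcct
Rps2, chr17:24720051-24720080, plus strand: cagtcgagatctcgcgcttcttggagcact
Rplp0, chr5:115559455-115559484, plus strand: ttcgggtttcgaggaccgcctggttctcct
Rpl36a, chrX:134585642-134585671, plus strand: cacccaggcaccgcctataaacttccgttg

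Such a run was present in 29 of the 65 members with a window in the table (44.6%), against 4421 of all 27025 genes in it (16.4%). The run was searched on the gene's own strand only. Annotated starts can differ from the start used in islets, and a window without the run says only that these letters were not found there. The gene start in GENCODE vM21 lies outside the window for Rpl35, Rpl22l1, Rpl7a, Rps6 and Rps2, farthest for Rps2 (base 24718116). It lies within the window for Rps27, Rplp0 and Rpl36a.

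Ribosomal protein RNA took a larger share of the transcriptome in macrophage-like and alpha-like cells than in beta-like cells. The share was computed over UMIs outside 8 islet hormone genes and the mitochondrially encoded genes, because hormone RNA alone took about 49.5% to 55.3% of beta-like UMIs. In macrophage-like cells it was 16.3% and 14.97% in the 1-month libraries (WT, then CCR2-DTR) and 15.7% and 16.4% in the 6-month libraries. In beta-like cells the values in the same order were 8.38%, 7.59%, 7.87% and 8.45%. The ranges of these classes did not overlap over the 4 libraries.

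Alpha-like cells, which make glucagon, lay close below macrophage-like cells at a mean of 14.8% (13.4% to 15.5%), with overlapping ranges. The Ppy-led cluster followed at 12.6% and delta-like cells, which make somatostatin, at 9.84%. Mesenchymal-like (8.76%), endothelial-like (8.32%) and beta-like cells (8.07%) had the lowest means, and their ranges overlapped. The mean was 1.96-fold higher in macrophage-like than in beta-like cells, and 4.05-fold higher when all UMIs were the denominator. T-like cells, present in number only in the CCR2-DTR 6-month library (58 cells), held 23.3%.

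**Figure D1:**
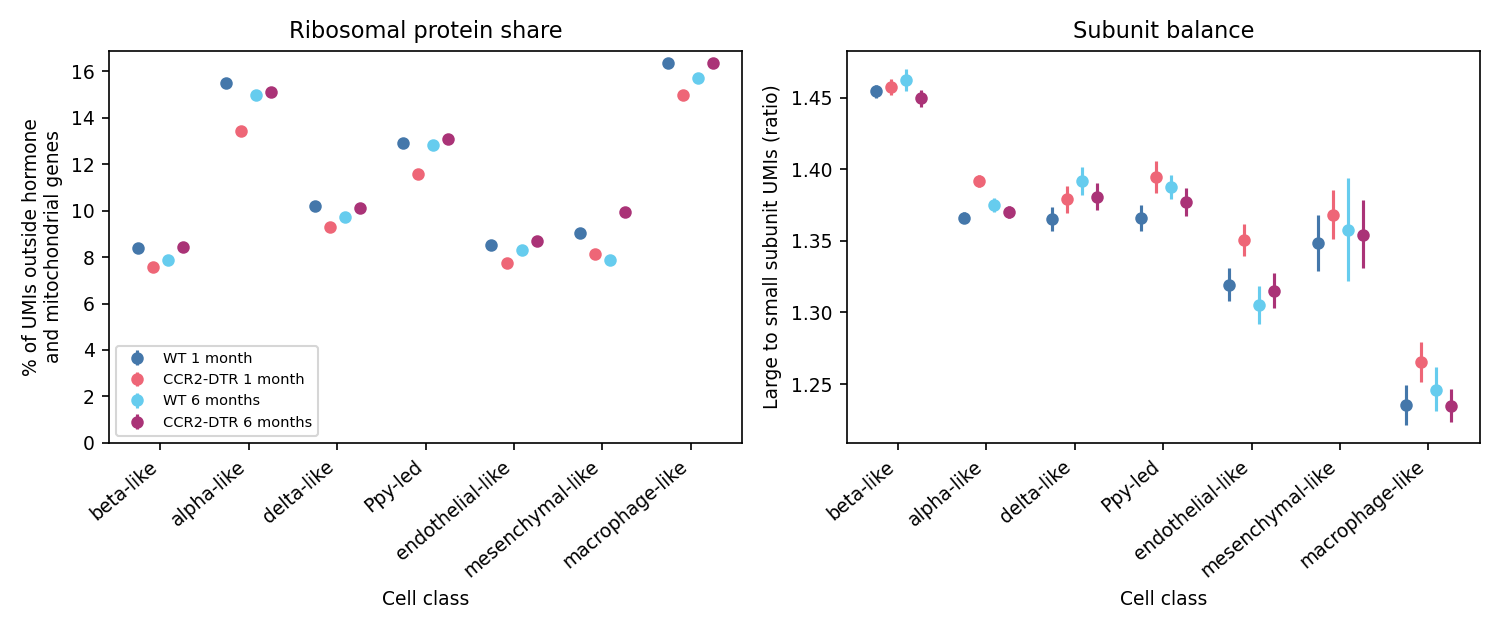
Left, share of UMIs outside hormone and mitochondrial genes that ribosomal protein genes held (%), and right, ratio of large to small subunit UMIs (axis not starting at 0), by cell class; each point is 1 library and bars are exact 95% counting intervals. The CCR2-DTR 1-month library is the lowest of 4 in 6 of the classes on the left, and beta-like cells are highest and macrophage-like cells lowest on the right.

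The balance between subunits also differed by class. Large subunit genes gave 1.46 UMIs per small subunit UMI in beta-like cells (1.45 to 1.46 over the 4 libraries) and 1.25 in macrophage-like cells (1.23 to 1.27). Alpha-like (1.38), delta-like (1.38), Ppy-led (1.38) and mesenchymal-like cells (1.36) lay between, and endothelial-like cells were at 1.32. The 2 extremes did not overlap, and the fold between them was 1.17. There are more large than small subunit genes, so a ratio above 1 is not by itself an excess of one subunit.

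Most members kept a similar place within the ribosomal protein RNA of each class. Of the 82 members with at least 1000 UMIs, 57 differed by under 1.5-fold in their share of ribosomal protein UMIs between the highest and lowest class, 8 differed by over 2-fold, and the median was 1.40-fold. The 10 that varied most included 4 paralogs in the first 6 places. Rpl36al was highest in beta-like cells at 1.00% of ribosomal protein UMIs (0.981 to 1.05) and lowest in endothelial-like cells at 0.280% (0.273 to 0.290), a 3.58-fold difference.

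Among genes that are not paralogs, Rpl41, which encodes the shortest ribosomal protein, was highest in beta-like cells at 2.34% and lowest in macrophage-like cells at 0.949% (2.46-fold). Rpl39, on X, ran the other way, with 1.03% in macrophage-like and 0.507% in alpha-like cells (2.03-fold). For both genes and Rpl36al, the libraries of the highest class lay above those of the lowest without overlap.

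**Figure D2:**
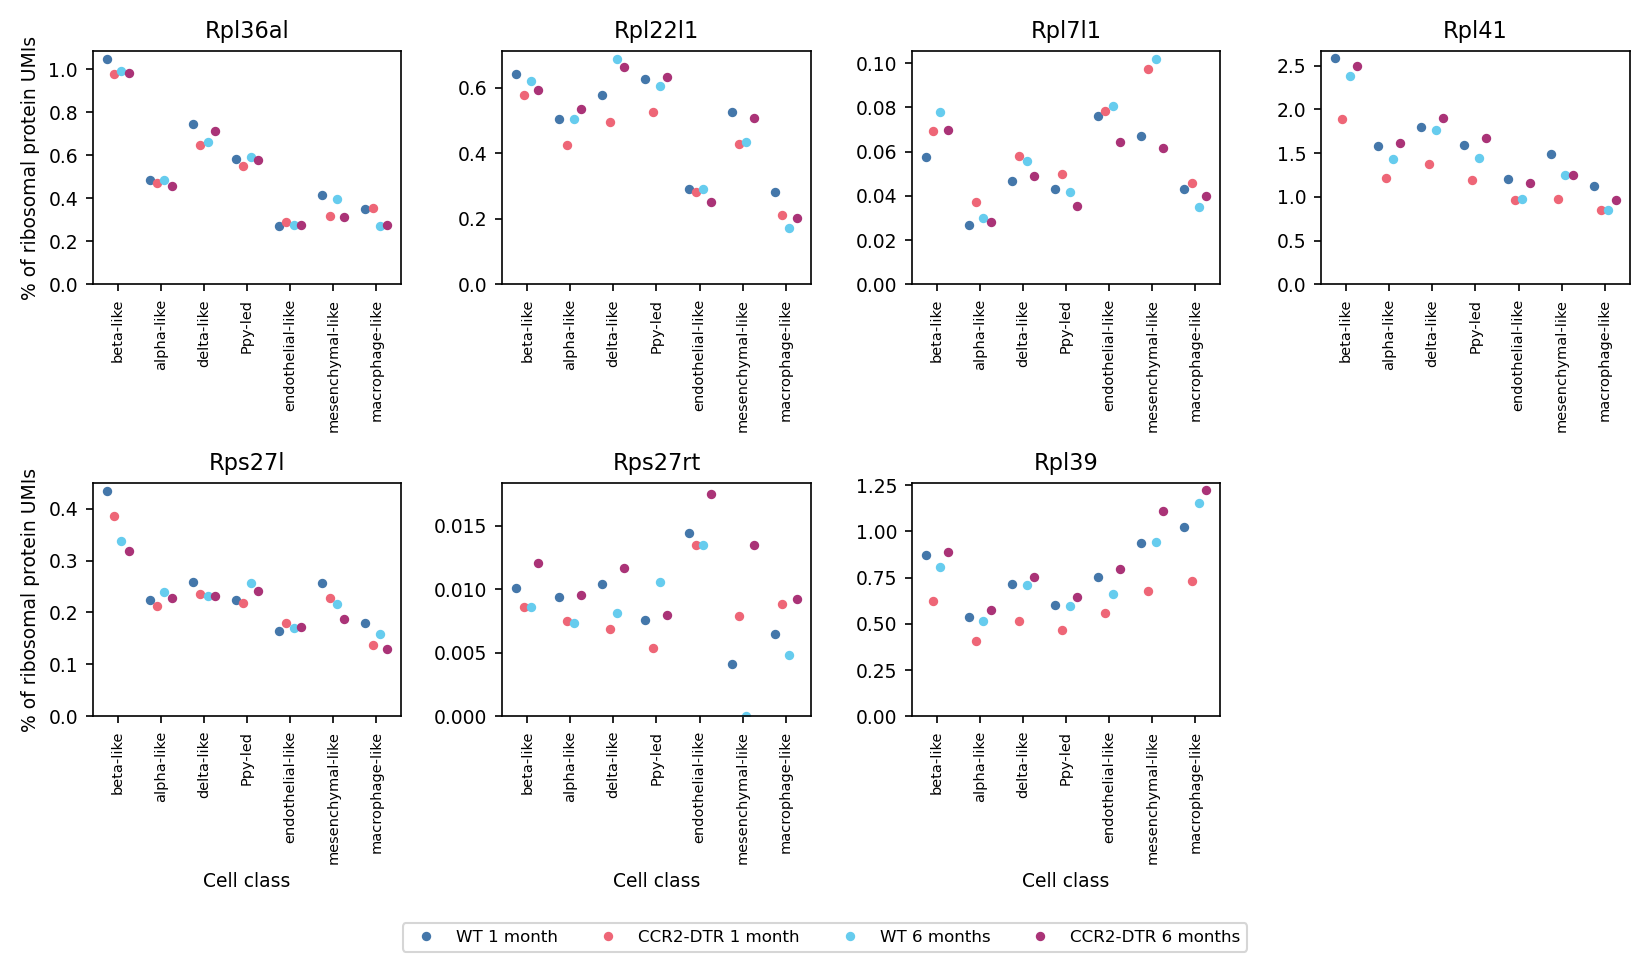
Share of ribosomal protein UMIs (%) held by 7 of the 10 members that varied most between classes, with 1 point per library; each panel's axis starts at 0 and has its own scale. Rpl36al sits near 1% in beta-like cells and near 0.28% in endothelial-like cells, and Rps27rt, at few UMIs, shows the widest scatter between libraries.

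The paralogs are second genes for a ribosomal protein, some made from a retrocopied mRNA and some with their own introns. A UMI is counted once whatever the length of the mRNA, but whether mRNAs of different length were recovered equally was not tested. Annotated transcripts of a pair can differ in length, as for Rps27l (499 bases) and Rps27 (345 bases). The ratio of a paralog to its parent is described by class and library, without correction for length. Ratios in the younger CCR2-DTR library should be read beside its differences by coding length, given below. Rpl22l1 (chr3:28805436-28807424, plus strand) and its parent Rpl22 (chr4:152325742-152334071, plus strand; both GRCm38, GENCODE vM21) encode a large subunit protein that binds RNA. Their coding sequences matched at 67.5% of 385 aligned positions, with 20 gap positions. The first 240 coding bases of each are shown, with capitals at the positions that differ, because the ratio of this pair separated the endocrine from the other classes.
Rpl22: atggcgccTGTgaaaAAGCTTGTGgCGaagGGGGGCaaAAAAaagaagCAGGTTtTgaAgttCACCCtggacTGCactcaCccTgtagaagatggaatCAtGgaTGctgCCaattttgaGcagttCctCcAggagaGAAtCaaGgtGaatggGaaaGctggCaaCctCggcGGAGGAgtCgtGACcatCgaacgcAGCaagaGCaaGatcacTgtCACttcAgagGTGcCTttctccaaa
Rpl22l1: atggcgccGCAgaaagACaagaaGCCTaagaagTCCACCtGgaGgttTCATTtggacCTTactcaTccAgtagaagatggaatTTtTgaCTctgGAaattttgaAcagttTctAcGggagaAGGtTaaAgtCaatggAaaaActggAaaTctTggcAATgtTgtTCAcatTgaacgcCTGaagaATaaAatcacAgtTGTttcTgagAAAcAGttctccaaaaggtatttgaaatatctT

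Endocrine classes held more Rpl22l1 than Rpl22, and the other classes held less. In beta-like cells Rpl22l1 stood at 538, 439, 489 and 501 CPM of UMIs outside hormone and mitochondrial genes and Rpl22 at 334, 260, 315 and 357. In macrophage-like cells Rpl22l1 stood at 460, 316, 270 and 333 CPM and Rpl22 at 1015, 747, 964 and 1084. The ratio of Rpl22l1 to Rpl22 was 1.26 to 1.77 over the 16 values of the 4 endocrine classes and 0.280 to 0.903 over the 12 values of endothelial-like, mesenchymal-like and macrophage-like cells, with no overlap.

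Rps27l (chr9:66946086-66949516, plus strand) and its parent Rps27 (chr3:90212522-90213651, minus strand) encode zinc-finger proteins of the small subunit, and Rps27l is known as a target of p53. Their coding sequences are 252 bases each and matched at 76.2% of positions, 60 of which differed and are in capitals.
Rps27: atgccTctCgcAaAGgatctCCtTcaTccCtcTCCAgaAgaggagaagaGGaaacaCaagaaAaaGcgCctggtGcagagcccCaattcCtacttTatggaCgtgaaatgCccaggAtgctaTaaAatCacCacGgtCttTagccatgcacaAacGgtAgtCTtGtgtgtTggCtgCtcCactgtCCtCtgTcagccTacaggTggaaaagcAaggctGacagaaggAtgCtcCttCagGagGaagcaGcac
Rps27l: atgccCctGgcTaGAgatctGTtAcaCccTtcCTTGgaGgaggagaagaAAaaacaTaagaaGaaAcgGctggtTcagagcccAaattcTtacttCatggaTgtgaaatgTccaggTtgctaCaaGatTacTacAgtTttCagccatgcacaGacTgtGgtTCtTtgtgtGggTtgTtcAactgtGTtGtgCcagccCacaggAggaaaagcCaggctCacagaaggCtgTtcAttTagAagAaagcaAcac

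In beta-like cells Rps27l stood at 364, 293, 266 and 268.4 CPM and Rps27 at 529, 350, 590 and 714 CPM. The ratio of Rps27l to Rps27 was thus 0.689 and 0.838 at 1 month, and 0.451 and 0.376 at 6 months. Over all 7 classes it ran from 0.267 to 0.838 in endocrine classes and from 0.183 to 0.513 in the others, which overlap. The CCR2-DTR 1-month library had the highest ratio in 6 of the 7 classes. Macrophage-like cells were the exception, at 0.330 against 0.347 in WT at 1 month. In beta-like cells both genes were lower in that library than in WT at 1 month, Rps27 more so.

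Rpl36al, a gene of 1 exon on chromosome 12, exceeded its X-linked parent Rpl36a in every endocrine class. In beta-like cells Rpl36al stood at 878, 744, 781 and 830 CPM and Rpl36a at 230, 147, 255 and 272, a ratio of 3.82, 5.04, 3.06 and 3.05. The ratio was 1.16 to 5.04 over endocrine classes and 0.672 to 1.48 over the others, and these overlap. Their coding sequences matched at 87.7% of positions, and the part of read assignment between them in these counts was not tested.

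Of the other paralogs, Rpl7l1 gave 8852 UMIs in all, with 55.3 CPM in beta-like cells as the mean of 4 libraries, and its ratio to Rpl7 stayed between 0.0221 and 0.0818. Rps27rt, a gene of 1 exon, gave 1772 UMIs. Its coding sequence was identical to that of Rps27 over all 252 bases, so its count is uncertain. Rpl39l, known from testis, gave 9 UMIs, Rpl3l, known from heart and skeletal muscle, gave 1, and Rpl10l, known from testis, gave 0.

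**Figure D3:**
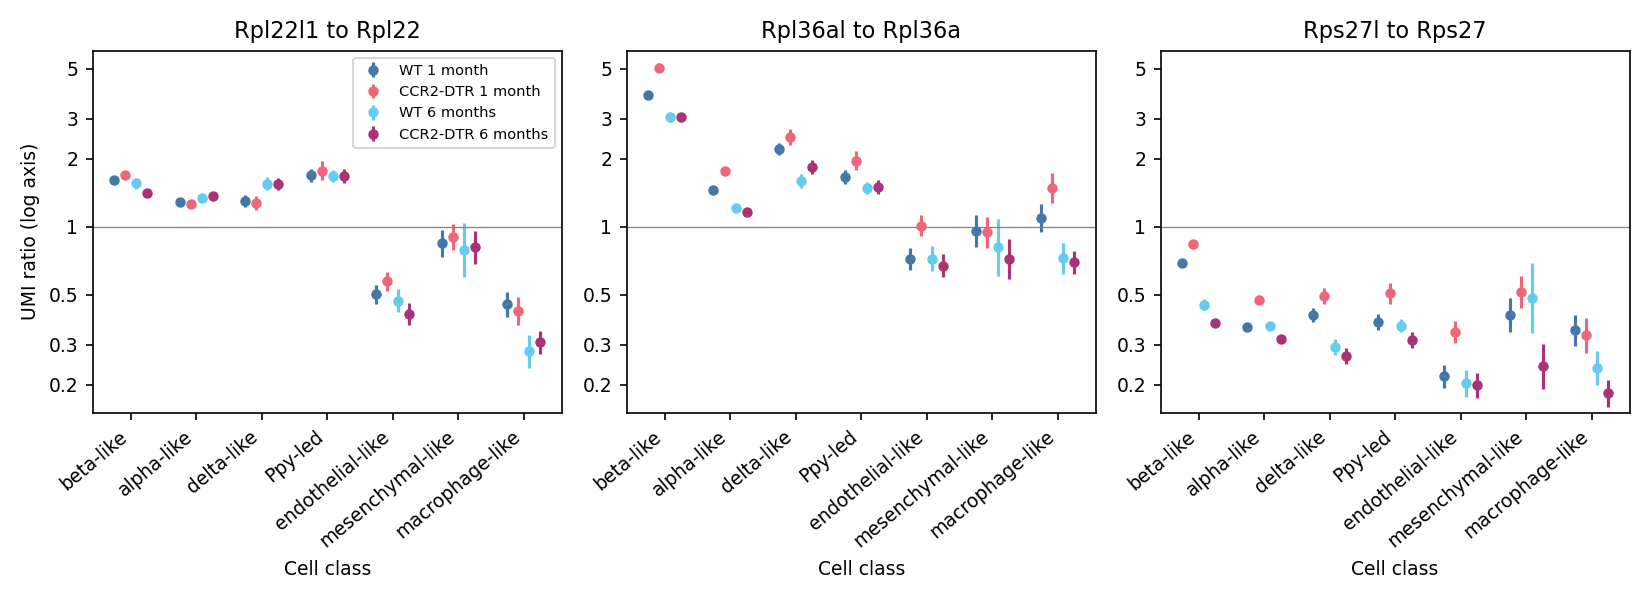
UMI ratio of 3 paralogs to their parent genes by cell class (log axis); each point is 1 library, bars are exact 95% counting intervals, and the line marks a ratio of 1. Rpl22l1 exceeds Rpl22 in the 4 endocrine classes and not in the other classes, and the ratio of Rpl36al to Rpl36a is highest in beta-like cells.

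The genotypes were compared at 1 month to ask whether islets of toxin-treated CCR2-DTR mice differed from those of WT littermates. Loss of CCR2-expressing cells was not tested here. For each gene the log2 ratio of the CPM of the class total was set against that of the median gene of the class (relative log2), over genes with at least 50 CPM in 1 of the libraries and at least 10 UMIs. A gene was called higher or lower when it lay at least 1.2-fold from the median gene and its 95% counting interval lay on that side. Of the 85 members, 80 or 81 passed this floor in each class.

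In every class, short ribosomal protein genes lay below the median gene in the CCR2-DTR library at 1 month, while long ones lay near it. In beta-like cells 37 of 80 members were called lower and 0 higher, where 6.92% of all 1893 genes past the floor were called lower and 2.48% higher. The median relative log2 was -0.23. In alpha-like cells 46 of 80 were called lower (6.38% of all genes) and 0 higher (2.96%), with a median of -0.31. The other classes had 36 to 40 called lower, beside 7.01% of all genes in delta-like, 8.5% in Ppy-led, 9.6% in endothelial-like, 8.47% in mesenchymal-like and 8.17% in macrophage-like cells. Called higher were 2 members in endothelial-like cells (9.15% of all genes), 1 in mesenchymal-like cells (8.33%) and 0 in delta-like (2.85%), Ppy-led (3.91%) and macrophage-like cells (6.83%).

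Over the 7 classes the median ran from -0.31 to -0.20 and the summed share ratio from 0.866 to 0.916. The median over large subunit members in beta-like cells was -0.19 (48 genes) and over small subunit members -0.25 (32 genes). The median gene itself lay at 0.20 (log2) in beta-like cells on the class-total scale, on which hormone RNA weighs, and at -0.02 to 0.20 over the 7 classes. Without setting values against it, 16 members were called lower and 12 higher there, with a median of -0.03. With UMIs outside hormone and mitochondrial genes as the denominator, 37 were called lower and 0 higher. The share of all genes called on these scales is not given here, so these counts cannot be set against it.

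Rps21 is a small subunit gene on chromosome 2 with 249 coding bases. It was lowest in beta-like cells, at 990 and 621 CPM of UMIs outside hormone and mitochondrial genes at 1 month (WT, then CCR2-DTR) and 979 and 1171 at 6 months. The CCR2-DTR 1-month library alone was low. The relative log2 at 1 month was -0.70 (95% counting interval -0.73 to -0.66).

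Rpl37, a large subunit gene with 291 coding bases, stood at 733, 473, 751 and 880 CPM in the same order in beta-like cells and at 1502, 935, 1476 and 1608 in macrophage-like cells. Its relative log2 at 1 month was -0.65 in the former and -0.72 in the latter, so both classes showed the low library. The other members among the 5 lowest in beta-like cells were Rps28 (-0.67), Rpl36 (-0.67) and Rpl36a (-0.66), with 207, 315 and 318 coding bases.

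Rps2, a small subunit gene with 879 coding bases, went the other way, at 1397, 1583, 1217 and 1322 CPM in beta-like cells. Its relative log2 at 1 month was 0.16, short of the call. Rps3 (0.16), Rpl7 (0.15), Rpl7a (0.14) and Rps3a1 (0.13) completed the 5 highest in beta-like cells, all with 729 coding bases or more and none called.

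The stalk of the large subunit, which recruits translation factors, was split in the same way. Rplp0, its base, has 951 coding bases and had a relative log2 of 0.12 in beta-like cells, whereas its short partners Rplp1 (-0.42) and Rplp2 (-0.48) were called lower. Their levels were 1271 and 527 CPM, against 1673 and 725 in the WT library. Rps6, the substrate of the S6 kinases, was at 0.12, and Rpsa, the laminin receptor protein of the small subunit, stood at 1723 CPM against 1666. On X, the short Rpl36a (-0.66) and Rpl39 (-0.65) were called lower, and the longer Rpl10 and Rps4x stood at 2060 and 1240 CPM against 1886 and 1199.

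Across members the relative log2 at 1 month followed coding length closely. Spearman's correlation was 0.93 in beta-like cells (80 members), 0.92 in alpha-like cells (80) and 0.91 in macrophage-like cells (81), and 0.89 to 0.94 over the 7 classes. These are correlations across genes that share the same pair of libraries, not replicates. Of the 41 members past the floor at or under the median coding length, 36 were called lower in beta-like cells (median -0.39), against 1 of the 39 longer ones (median 0.02). In alpha-like cells all 41 short members were called lower (median -0.46), and 5 of the 39 longer ones (median -0.05). The paralogs Rps27l and Rpl36al, which have the coding length of their parents, lay closer to the median gene. Their means over the 7 classes were -0.30 and -0.27, against -0.62 for Rps27 and -0.56 for Rpl36a. Under the alternatives that kept coding length as the measure, the correlation in beta-like cells was 0.90 to 0.94. With the length of the annotated transcript in its place it was 0.51.

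Genes that are not members showed a smaller difference in the same direction: the 108 with under 300 coding bases had a median of -0.15 in beta-like cells and 44.4% of them were called lower, against -0.62 for the 10 members of that length, all 10 called lower. From 300 to under 450 bases the medians were 0.00 for 176 other genes and -0.36 for 29 members. Called lower were 13.6% of those other genes, beside 6.92% of all genes, and 26 of the 29 members.

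**Figure D4:**
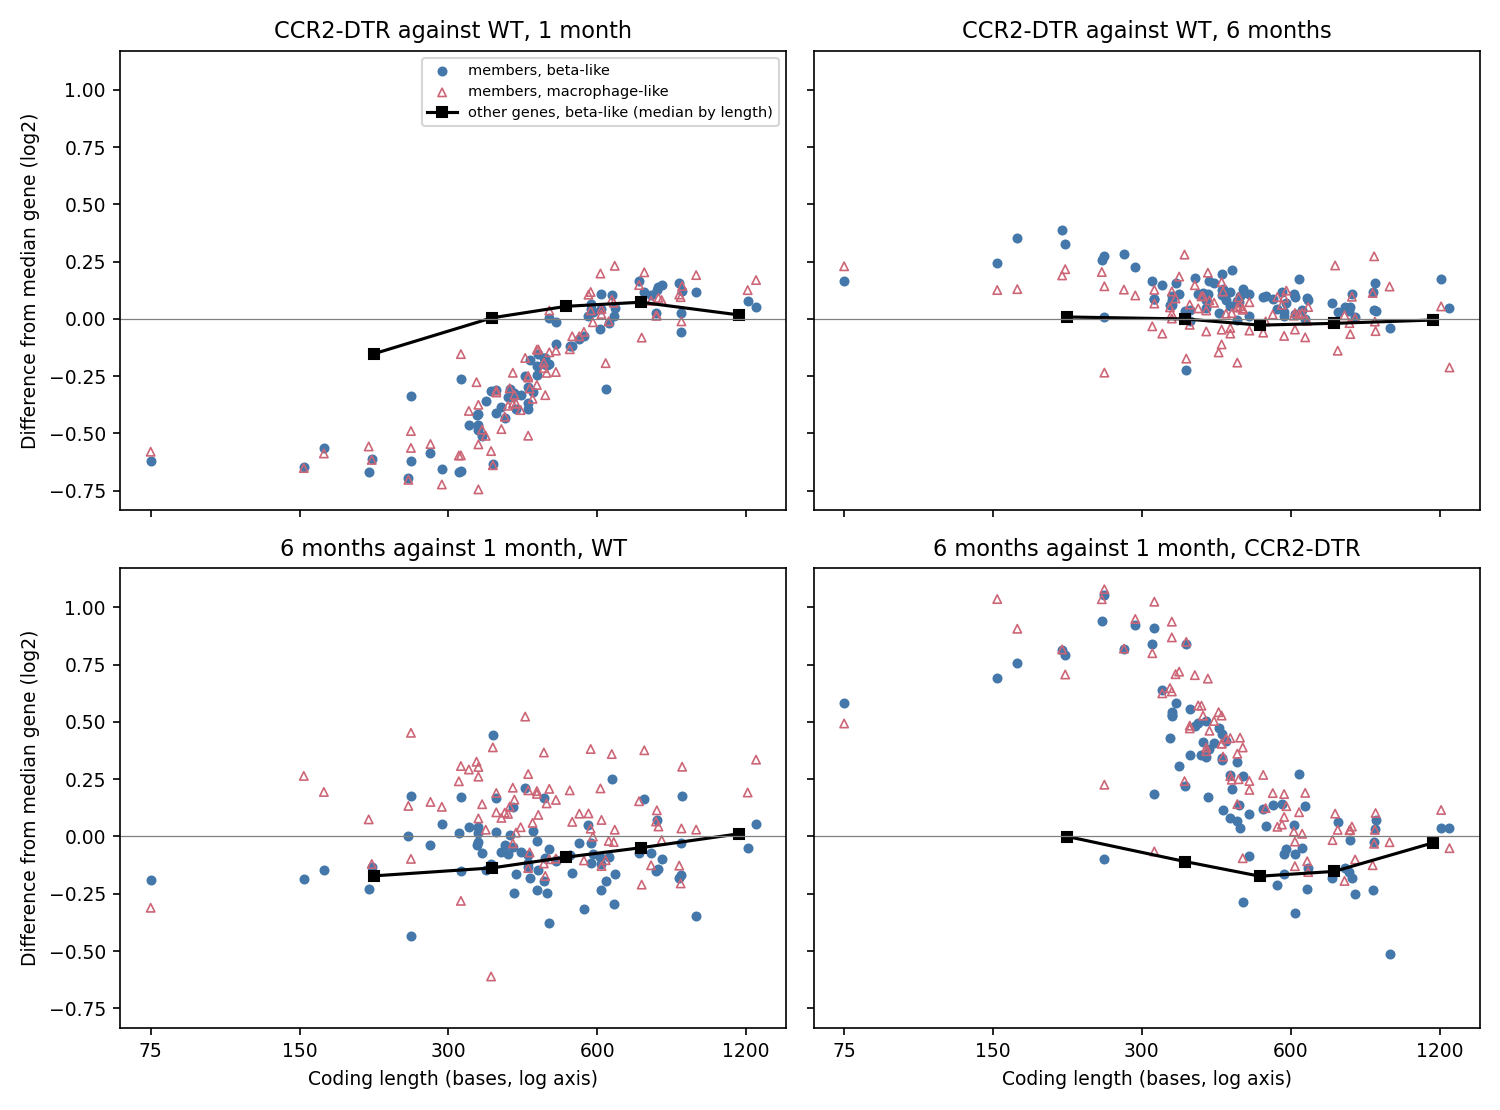
Difference from the median gene (log2) against coding length (bases, log axis) for each member past the floor in beta-like (filled) and macrophage-like cells (open), in the 4 comparisons; squares are medians of other genes in beta-like cells by length, for genes under 1500 bases. At 1 month the 10 members under 300 bases have a median of -0.62 in beta-like cells and the 29 of 300 to under 450 bases a median of -0.36, and 6 months against 1 month in CCR2-DTR runs the opposite way.

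The same members were low in each class. The values of the 80 members past the floor in all classes correlated between classes with Pearson's r of 0.90 to 0.98 over 21 pairs of classes, which share the 2 libraries. Below the median gene in all 7 classes lay 52 members, and 27 were called lower in all 7. The share of all genes that did so is not given here, so these counts cannot be set against it. The ratio of UMIs from short to long members was also taken in each library. In beta-like cells it was 0.809 in WT and 0.611 in CCR2-DTR at 1 month, and 0.823 and 0.861 at 6 months. Over the 7 classes the ratio was 0.565 to 0.612 in the CCR2-DTR 1-month library and 0.728 to 0.871 in the other 3, so that library stood apart in all classes. Its preparation and sequencing cannot be told apart from its genotype and age.

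The comparison of genotypes at 6 months asks the same of older islets. Differences were small in 6 of the classes. In beta-like cells 76 of 80 members lay above the median gene, with a median relative log2 of 0.10, and 5 were called higher (2.37% of all genes) and 0 lower (1.6%). The 5 were Rps28 (0.39), Rps29 (0.35), Rpl38 (0.33), Rpl37a (0.28) and Rps27 (0.27), all short. Rpl35, at 153 CPM of the class total in WT and 132 in CCR2-DTR, was the lowest at -0.22. In the other classes but mesenchymal-like, 1 to 4 members were called higher (4.36% of all genes in alpha-like, 4.31% in delta-like, 4.82% in Ppy-led, 7.51% in endothelial-like and 8.9% in macrophage-like cells), and the medians were 0.02 to 0.07. The sign of the macrophage-like median, 0.05, depended on the processing: it was -0.038 with doublets kept, -0.043 at the finer clustering (Leiden resolution 2) and -0.0053 with genes under 600 coding bases as the centre. Called lower was 1 member in alpha-like cells, Rpl35 at -0.33 (1.77% of all genes), and 0 in delta-like (3.73%), Ppy-led (2.62%), endothelial-like (6.83%) and macrophage-like cells (7.75%). On the class-total scale delta-like cells had 39 members above and 41 below, with 1 called in each direction, in place of 68 and 12 with 1 called higher. Alpha-like cells had 2 called higher and 1 lower on that scale, for which no share of all genes is given. Spearman's correlation with coding length was -0.44 to -0.31 over the 7 classes.

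Mesenchymal-like cells differed, with 68 of 81 members called higher (15.5% of all genes), 0 lower (10.5%) and a median of 0.47. The class joins a cluster led by Rgs5 and Acta2, genes of pericytes and smooth muscle, and a cluster led by Col3a1 and Dcn, genes of fibroblasts. The WT library held 50 cells of the former among its 55, and the CCR2-DTR library 60 of the former and 38 of the latter. Within the Rgs5 and Acta2 cluster the ribosomal share was 7.28% in WT and 6.55% in CCR2-DTR, and the median relative log2 was -0.12. The Col3a1 and Dcn cluster held a ribosomal share of 12.8% in CCR2-DTR at 6 months.

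Age was compared within each genotype. In WT, 6 months against 1 month, beta-like cells had a median of -0.08, with 5 of 80 members called lower (12.6% of all genes) and 1 higher (10.5%). The sign of that median depended on the centre, as it was 0.05 against genes under 600 coding bases. Without a floor it was -0.15, with 12 members called lower and 2 higher, and no share of all genes is given there. The 5 were Rps27l (-0.43), Rpl29 (-0.38), Rplp0 (-0.35), Rpl18 (-0.32) and Rpl10a (-0.30), and the 1 was Rpl35 (0.44), at 109 CPM of the class total at 1 month and 153 at 6 months. Rpl35 was also the highest in alpha-like cells, at 0.63. The mix of the beta-like class differed between ages. In WT its cluster led by Cox6a2 and Ins1 held 2127 cells at 1 month and 124 at 6 months. Its cluster led by Atf5 and Trpm5 held 841 and 429. The ribosomal share was 8.41% and 7.95% in the former and 8.31% and 7.84% in the latter.

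In alpha-like cells 3 were called higher (7.45% of all genes) and 0 lower (7.62%), in delta-like cells 1 (12.4%) and 7 (12.3%), in the Ppy-led cluster 7 (8.81%) and 0 (9.93%), and in endothelial-like cells 5 (12.8%) and 3 (10.7%). These counts moved with the scale. The shares of all genes given here belong to values set against the median gene, and none is given for the other scales. Counts on those scales therefore cannot be set against all genes. On the class-total scale the median gene itself lay at 0.15 (log2) in delta-like and at -0.10 in alpha-like cells. On the class-total scale the members called higher and lower were 3 and 3 in beta-like, 1 and 6 in alpha-like, 11 and 1 in delta-like cells, 2 and 5 in the Ppy-led cluster and 2 and 13 in mesenchymal-like cells. With UMIs outside hormone and mitochondrial genes they were 2 and 1 in alpha-like, 2 and 6 in delta-like and 4 and 4 in endothelial-like cells. In macrophage-like cells 15 of 81 were called higher (15.5% of all genes) and 3 lower (13.9%), the former led by Rps23 (0.52) and Rps27 (0.45), and Rpl22l1 was lowest at -0.61. With UMIs outside hormone and mitochondrial genes as the denominator, 2 were called higher and 11 lower in macrophage-like cells. That class joins 2 clusters whose ribosomal shares in WT moved in opposite directions with age. In the cluster led by Cd74 and H2-Eb1 the share was 17.6% at 1 month and 15.2% at 6 months. In the cluster led by Lyz2 and H2-Aa, with 33 cells at 6 months, it was 14.7% and 17.3%. Mesenchymal-like cells had 40 of 81 called lower (11.9% of all genes), 0 higher (9.6%) and a median of -0.27, which was -0.09 within the Rgs5 and Acta2 cluster. Spearman's correlation with coding length was -0.29 to 0.31 over the 7 classes, and its sign differed between classes.

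In CCR2-DTR the comparison of ages uses the same 1-month library as the comparison of genotypes at 1 month, so the values below are not separate evidence of that library's low short members. In beta-like cells 37 of 80 members were called higher (15.2% of all genes) and 3 lower (17.6%), with a median of 0.20. Rps27 led at 1.06, followed by Rps21 (0.94), Rpl37 (0.92), Rpl36a (0.91) and Rpl35 (0.84). Rplp0 (-0.51), Rpl15 (-0.33) and Rpl29 (-0.28) were called lower, and Rplp0 and Rpl29 were also called lower with age in WT. Without setting values against the median gene, which lay at -0.13 (log2), 27 were called higher and 13 lower. No share of all genes is given for that scale. Against the median gene, 35.8% of the 109 other genes with under 300 coding bases were called higher and 24.8% lower. Their median was -0.00033. Of the 10 members of that length 9 were called higher and 0 lower, with a median of 0.80. Here too the beta-like mix differed between ages. The Cox6a2 and Ins1 cluster held 1574 cells at 1 month and 239 at 6 months, and the Atf5 and Trpm5 cluster 796 and 802.

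In the other classes 34 to 50 members were called higher, beside 12.5% of all genes in alpha-like, 13.9% in delta-like, 13.8% in Ppy-led, 17.7% in endothelial-like, 13.6% in mesenchymal-like and 20.5% in macrophage-like cells. Called lower were 4 in delta-like (12% of all genes), 3 in endothelial-like (15.4%) and 0 in alpha-like (10.1%), Ppy-led (10.6%), mesenchymal-like (11.6%) and macrophage-like cells (18%). In the Ppy-led cluster 42 were called higher and 0 lower, or 29 and 10 on the class-total scale, on which its median gene lay at -0.17. Macrophage-like cells had 42 and 0, or 31 and 6 with UMIs outside hormone and mitochondrial genes. For these other scales no share of all genes is given, so their counts cannot be set against it. Spearman's correlation with coding length was -0.89 to -0.84. Of other genes with under 300 coding bases, 26.7% in mesenchymal-like to 39.4% in Ppy-led cells were called higher in these classes. The mesenchymal-like median of 0.42 was -0.02 within the Rgs5 and Acta2 cluster.

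**Figure D5:**
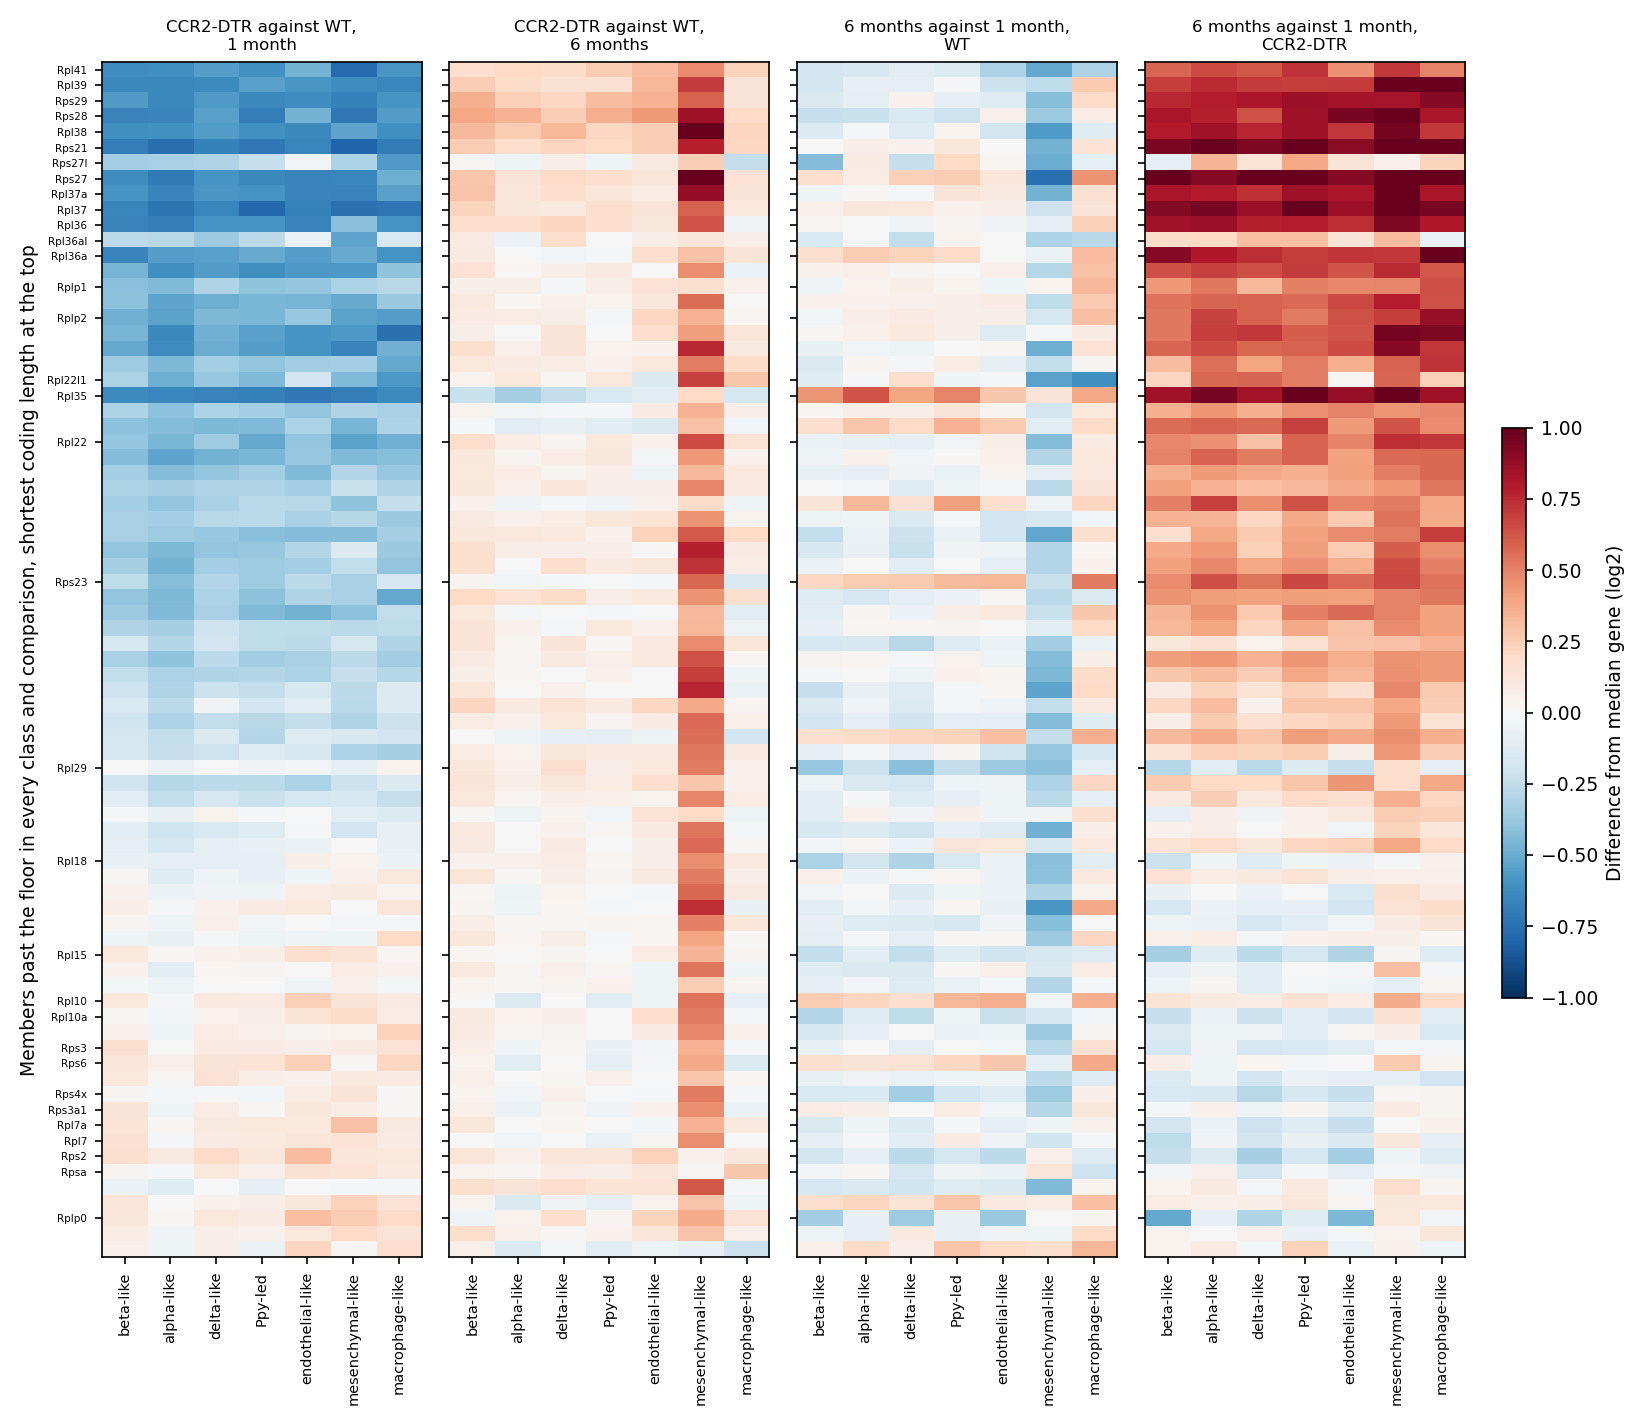
Difference from the median gene (log2, colour scale from -1 to 1, with 19 values beyond it shown at its end) for 77 of the 80 members past the floor in every class and comparison, with some of the genes named in the text labelled, ordered by coding length from the shortest at the top. Short members are low in all 7 classes at 1 month and high with age in CCR2-DTR, and mesenchymal-like cells stand apart in the genotype comparison at 6 months.

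Other genes of the translation machinery were counted in the same way in the genotype comparison at 1 month. All genes called lower were 6.92% in beta-like, 6.38% in alpha-like, 7.01% in delta-like, 8.5% in Ppy-led, 9.6% in endothelial-like, 8.47% in mesenchymal-like and 8.17% in macrophage-like cells. Of 26 translation and other TOP genes, 21 passed the floor in beta-like cells, 13 above and 8 below the median gene, with a median of 0.07. Called lower were 2, Fau, which encodes a fusion of a ubiquitin-like protein with a small subunit protein, and Gas5, a snoRNA host gene. In delta-like cells 4 of 23 and in the Ppy-led cluster 4 of 24 were called lower (Fau, Gas5, Snhg1 and Snhg8 in both), and the genes called lower in alpha-like cells included these 4. Snhg1 and Snhg8 are also snoRNA host genes. Endothelial-like cells had 2 of 25 called higher (Hnrnpa1 and Impdh2), beside 9.15% of all genes higher. Mesenchymal-like cells had 4 of 24 lower (Fau, Gas5, Snhg1 and Snhg8) and 3 higher (Eef1g, Eif3k and Nap1l1), beside 8.33% of all genes higher. Macrophage-like cells had 1 of 24 higher (Tpt1), beside 6.83% of all genes higher. Fau was called lower in all 7 classes.

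Of 30 ribosome biogenesis genes 6 passed in beta-like cells, with a median of 0.07 and none called; in macrophage-like cells 9 passed, with a median of -0.08 and none called. None was called in alpha-like or mesenchymal-like cells. Nop10 was called lower in delta-like cells and the Ppy-led cluster, and Fbl was called higher in the Ppy-led cluster and endothelial-like cells. Of 78 mitochondrial ribosomal protein genes 14 passed in beta-like cells, with a median of -0.01, and 1 (Mrps21) was called lower. Called lower were 3 of 27 in alpha-like (Mrps21, Mrpl33 and Mrpl52), 4 of 31 in delta-like (those 3 and Mrpl23), 3 of 27 in Ppy-led (Mrps21, Mrps36 and Mrpl52), 4 of 33 in endothelial-like (Mrps21, Mrpl33, Mrpl52 and Mrpl14), 4 of 40 in mesenchymal-like (Mrps21, Mrpl33, Mrpl52 and Mrpl57) and 2 of 31 in macrophage-like cells (Mrpl23 and Mrpl52). Called higher were 2 in the Ppy-led cluster (Mrpl48 and Mrpl28, beside 3.91% of all genes) and 2 in mesenchymal-like cells (Mrps28 and Mrps12).

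The S6 kinase genes, which match the symbol pattern only, differed between classes. Rps6ka1 stood at 106, 86.3, 117 and 109 CPM of UMIs outside hormone and mitochondrial genes in macrophage-like cells and at 0.9 to 1.3 in beta-like cells. Rps6ka2 was highest of the 7 classes in beta-like cells, at 98.5, 94.4, 101 and 93.0, against 24.4 to 34.1 in alpha-like cells. Rps6ka3 was highest of the 7 in endothelial-like cells, at 110, 110, 129 and 139. Rps6kb1, which encodes the S6 kinase that phosphorylates ribosomal protein S6 under mTOR, had a mean of 94.3 in beta-like and 45.4 in macrophage-like cells.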

How the data were processed

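The deposited matrices are tables of raw UMI counts by gene and barcode, which the authors produced with Cell Ranger 5.0.1 (build mm10), per the submitters' processing notes. The other deposited files (unit: other) list barcode and gene names only. For chemistry, annotation release and reads that match several genes, the settings were not given in the sources used here.

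Kept were barcodes of 1000 UMIs and 500 genes or more whose mitochondrial share was 15% or less; doublets were removed at a Scrublet score of 0.25 (scanpy 1.11.5). The 25220 cells were clustered on 2000 variable genes, 30 components and 15 neighbours with Leiden resolution 1 (leidenalg 0.10.2), without ribosomal protein genes. A cluster needed 3 markers for a name, and 20 of 30 were named. UMIs were summed per class and library, for classes of at least 50 cells in both libraries. Ratios have exact conditional 95% intervals for 2 Poisson counts, shares exact Clopper-Pearson ones. The functions were tested on simulated data. Coordinates and coding lengths are from GENCODE vM21 (GRCm38), matched by gene ID for all 96 symbols, and start windows from RefSeq (GRCm38.p6).

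The members and lists were chosen with earlier results of these data known. Named are, per comparison and class described, the 5 highest and 5 lowest members past the floor; the paralogs with their parents; the 10 members varying most between classes; and the stalk genes, Rpsa, Rps6, X-linked members and S6 kinase genes. The genes named from the lists of other translation genes were named after their values were seen. Some members and listed genes are not reported here. Alternatives were other scalings, no floor, a call at 1.5-fold, doublets kept, at most 10% mitochondrial UMIs, equal cell weights, thinning to 2000 UMIs and other clusterings. Chosen after the data were seen were single clusters, centring on genes under 600 coding bases, transcript length and other member sets. Classes with too few cells in any library, cycling cells and unnamed clusters other than the Ppy-led one were left out of the comparisons.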

Additional observations from a re-analysis of the deposited data

Results flagged for a closer look

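In all 7 classes the median ribosomal protein gene of the CCR2-DTR library lay below the median gene at 1 month and above it at 6 months under the settings of the report. The 6-month less the 1-month value (log2) was 0.32 in beta-like, 0.33 in alpha-like, 0.32 in delta-like, 0.30 in Ppy-led, 0.27 in endothelial-like, 0.70 in mesenchymal-like and 0.28 in macrophage-like cells. With 1 library per group this difference was not tested. The 1-month values lay in the short members: long members had medians of -0.055 to 0.037 over the 7 classes at 1 month, and of 0.0092 to 0.46 at 6 months. The ratio of UMIs from short to long members was 0.565 to 0.612 in the CCR2-DTR 1-month library and 0.728 to 0.871 in the other 3. The sign at 6 months did not hold under every alternative in 3 classes. In macrophage-like cells the median was -0.038 with doublets kept, -0.043 at Leiden resolution 2 and -0.0053 centred on genes under 600 coding bases, and in delta-like cells it was -0.0026 on the class-total scale. In mesenchymal-like cells the 6-month sign depended on which clusters were counted, as it was -0.12 within the Rgs5 and Acta2 cluster.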

How the results depend on the processing

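No paired analysis was possible because each group holds 1 library. Over 50 results there were 492 alternative values, of which 391 kept their direction and size, 89 moved and 12 reversed; the 391 are not listed. The cause of each move was not tested. Values below are class medians against the reference (log2) unless called counts. The counts called under these alternatives have no share of all genes beside them.

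On class totals the genotype median was -0.028 in beta-like cells at 1 month, and at 6 months 0.29 in mesenchymal-like, 0.073 in macrophage-like and, reversed, -0.0026 in delta-like cells. With age in WT it was -0.024 in beta-like, -0.12 in alpha-like, -0.084 in Ppy-led, -0.093 in mesenchymal-like and, reversed, 0.067 in delta-like cells, and with age in CCR2-DTR 0.070 in beta-like and 0.12 in Ppy-led cells. On UMIs outside hormone and mitochondrial genes, mesenchymal-like cells were at 0.35 at 6 months and -0.21 with age in WT, alpha-like cells at -0.049 with age in WT, and macrophage-like cells at -0.055 (reversed) with age in WT and 0.10 in CCR2-DTR.

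A call at 1.5-fold left 11 members lower in beta-like and 14 in alpha-like cells at 1 month. At 6 months it left 0 higher in either class and 0 lower in alpha-like cells. With age in WT it left 0 higher and 0 lower in beta-like and 1 higher in alpha-like cells, and in CCR2-DTR 12 higher and 0 lower in beta-like and 20 higher in alpha-like cells. Without a floor the 6-month genotype median was 0.11 in beta-like and 0.38 in mesenchymal-like cells, with 2 called higher in alpha-like cells. With age in WT it was then -0.15 in beta-like (2 called higher, 12 lower), -0.19 in mesenchymal-like and 0.17 in macrophage-like cells, with 2 called lower in alpha-like cells, and 9 were called lower in beta-like cells in CCR2-DTR.

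With doublets kept, endothelial-like cells were at -0.36 for genotype at 1 month and -0.095 with age in WT. Macrophage-like cells were then at -0.038 for genotype at 6 months and -0.051 with age in WT, both reversed, and 0.17 with age in CCR2-DTR. With every cell weighing the same, mesenchymal-like cells were at -0.12 for genotype at 1 month, 0.38 at 6 months and 0.24 with age in CCR2-DTR. At 6 months alpha-like cells were at 0.067 (3 called higher), delta-like at 0.086 and macrophage-like at 0.012, and with age in WT alpha-like cells at -0.11 (6 called lower), Ppy-led at -0.052 and macrophage-like at 0.0067.

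Thinned to 2000 UMIs, alpha-like cells were at 0.078 for genotype at 6 months (3 called higher) and -0.11 with age in WT (1 higher, 5 lower). With age in WT Ppy-led cells were at -0.047, mesenchymal-like at -0.39 and macrophage-like, reversed, at -0.030, and 2 were called higher in beta-like cells. With age in CCR2-DTR 5 were called lower in beta-like cells, and mesenchymal-like cells were at 0.18. At Leiden resolution 2, macrophage-like cells were at -0.043 for genotype at 6 months (reversed) and 0.035 with age in WT, and mesenchymal-like cells at 0.41 at 6 months. With ribosomal genes allowed among the variable genes, the 6-month genotype medians were 0.0022 in alpha-like, 0.033 in delta-like, 0.061 in Ppy-led and 0.43 in mesenchymal-like cells.

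Of the alternatives chosen after seeing the data, the cluster led by Cox6a2 and Ins1 alone gave beta-like cells 0.055 and 1 called lower for genotype at 6 months, 2 higher and 3 lower with age in WT, and 1 lower in CCR2-DTR. The cluster led by Rgs5 and Acta2 alone gave mesenchymal-like cells -0.12 at 6 months and -0.022 with age in CCR2-DTR, both reversed, and -0.093 with age in WT. Centring on genes under 600 coding bases gave 0.042 in endothelial-like and -0.0053 (reversed) in macrophage-like cells for genotype at 6 months. With age in WT it gave 0.048 in beta-like and 0.041 in delta-like cells, both reversed, 0.036 in Ppy-led, 0.030 in endothelial-like, -0.14 in mesenchymal-like and 0.23 in macrophage-like cells, and with age in CCR2-DTR 0.53 in mesenchymal-like cells.

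Spearman's correlation of coding length and member difference in beta-like cells was 0.90 at 1 month, -0.28 at 6 months and -0.81 with age in CCR2-DTR when thinned, and 0.51, -0.30 and -0.45 with transcript length; at 6 months it was -0.34 in the Cox6a2 and Ins1 cluster.

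The fold of the ribosomal share between the highest and lowest class was 1.93 with doublets kept, 2.08 with equal weights, 2.06 when thinned, 1.91 at resolution 2 and 4.05 over all UMIs. The fold of the subunit ratio was 1.16 without members that have pseudogene or retrogene rows. Depth limits the mesenchymal-like and macrophage-like classes most, which hold 55 and 94 cells in the WT 6-month library.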
